A study of Mus musculus with 13 samples.

Results

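The 7 genes described here carry the type 2 immune axis of the lung: the cytokines Il4, Il5 and Il13, the alarmin Il33, its receptor ST2 (encoded by Il1rl1), the growth factor amphiregulin (Areg) and the transcription factor GATA3 (Gata3). They were taken by symbol from the 31053 genes of the deposited count matrix, and all 7 were found. The study asked how eosinophils take part in lung emphysema, and its single-cell RNA sequencing (10x Genomics 3′ libraries) was done on dissociated whole lungs of C57BL/6 mice, with 1 mouse for each of the groups Asthma, Control, PPE-emphysema and PPE-recovery. Asthma mice were sensitized and then challenged with ovalbumin. PPE-emphysema mice received weekly intratracheal doses of porcine pancreatic elastase (PPE), an enzyme that digests elastic fibers and enlarges the air spaces, and were killed within days of the last dose. PPE-recovery mice received a single dose of elastase and were killed weeks later, and Control mice underwent instillation on the schedule of the emphysema mice. With 1 mouse per group, no replicate stands behind any group. The labels list 9 further samples (Acute injury, Con and emphysema, 3 each), for which no separate data were analysed here. The matrix pools 7 libraries, told apart only by a number at the end of each cell barcode, and no label ties these numbers to the 13 samples or the 7 groups. These are more libraries than the single-cell mice named above. The study also reports bulk RNA sequencing of mice, and it compares acute injury and emphysema with control in lung transcriptomes outside its single-cell part. From the labels, whether any library came from the 9 further samples cannot be told. The data were therefore treated as 1 sample, libraries are named by their number, and neither a comparison of groups nor a test was made.

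Type 2 immunity is the arm of the immune system that answers worms, allergens and some forms of tissue damage. Damaged or stressed barrier cells release IL-33 from their nuclei, and IL-33 binds ST2 on group 2 innate lymphoid cells, T helper cells, regulatory T cells, basophils and mast cells. These cells depend to different degrees on GATA3 and answer with IL-5, which matures and recruits eosinophils, with IL-13, which acts on airway epithelium, smooth muscle and macrophages, with IL-4, which drives T helper differentiation and the switch to IgE, and with amphiregulin, which promotes epithelial repair through the epidermal growth factor receptor.

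A barcode was kept when mitochondrial genes held at most 10% of its UMIs (unique molecular identifiers, 1 for each captured mRNA molecule), which left 33618 of 37344 barcodes. The libraries held 2992 to 7626 kept cells, with 29619014 to 76435633 UMIs and a median of 5272 to 9114 UMIs per cell. Libraries 4, 5 and 6 stood apart. Hemoglobin Hbb-bs made up 160900 to 200407 CPM (UMIs per 1000000 UMIs) there, against 40.5 to 156 in libraries 1, 2, 3 and 7, and the surfactant gene Sftpc was at 0, 0 and 0.0660 CPM against 2674 to 9212. The lung label was thus not borne out by epithelial markers in libraries 4 to 6, and values of T cells, which both sets of libraries held, are given below for the lung libraries 1, 2, 3 and 7 beside those over all libraries. A barcode sequence present in more than 1 library was found for 306 barcodes (0.819%), and at most 17 of the cells positive for any 1 member carried such a barcode. Cells were grouped into 53 clusters without using the 7 members, 46 clusters could be named from markers, and these formed 21 cell classes, written as T cell-like and so on. Levels below are CPM of the summed counts of a class, cluster or gate with exact 95% Poisson intervals, shares are percentages of cells with at least 1 UMI with exact 95% binomial (Clopper-Pearson) intervals, and both intervals cover counting error only. Where a count is 0, the share it allows is 3 counts over the number of cells, and this limits the cells with a captured UMI, not the cells that express the gene.

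The 3 cytokine genes lie side by side on chromosome 11 (genome build GRCm38, mm10), where Il4 (11:53602982-53618669, minus strand), Il13 (11:53631324-53634702, minus strand) and Il5 (11:53720794-53725106, plus strand) span 122125 bases. The gap between Il4 and Il13 was 12654 bases and that between Il13 and Il5 was 86091 bases. Il1rl1 lies at 1:40429570-40465415 (plus strand), Gata3 at 2:9857078-9890034 (minus strand), Areg at 5:91139599-91148432 (plus strand) and Il33 at 19:29925114-29960718 (plus strand). Because 33 of the 38 Il5-positive cells also had Gata3, the 250 bases before the start sites of the cytokine and receptor genes are shown from RefSeq (build GRCm38.p6, each read 5′ to 3′ on the strand of its gene). Capitals mark every match to the letters AGATAA or its variant AGATAG, and to the letters TGATAA or its variant TGATAG, on either strand, which are words that GATA factors can bind. The Il4 window is the upstream one of the 2 starts listed, and both listed starts of Il1rl1 are shown.
Il4 chr11:53618666-53618915, minus strand: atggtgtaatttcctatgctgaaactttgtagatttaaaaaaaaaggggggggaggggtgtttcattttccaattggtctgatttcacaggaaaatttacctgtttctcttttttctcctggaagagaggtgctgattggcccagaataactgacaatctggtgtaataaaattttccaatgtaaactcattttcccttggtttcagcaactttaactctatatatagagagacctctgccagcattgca
Il13 chr11:53634703-53634952, minus strand: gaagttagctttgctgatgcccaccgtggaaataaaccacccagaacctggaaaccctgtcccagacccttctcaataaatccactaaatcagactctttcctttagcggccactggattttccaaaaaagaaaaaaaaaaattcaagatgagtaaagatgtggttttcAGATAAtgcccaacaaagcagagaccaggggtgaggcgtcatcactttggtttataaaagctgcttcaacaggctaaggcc
Il5 chr11:53720544-53720793, plus strand: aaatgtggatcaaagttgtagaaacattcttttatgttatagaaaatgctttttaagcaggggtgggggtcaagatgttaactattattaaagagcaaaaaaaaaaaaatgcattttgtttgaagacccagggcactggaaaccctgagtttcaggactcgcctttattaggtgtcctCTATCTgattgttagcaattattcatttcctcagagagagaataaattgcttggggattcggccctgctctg
Il1rl1 upstream start chr1:40429320-40429569, plus strand: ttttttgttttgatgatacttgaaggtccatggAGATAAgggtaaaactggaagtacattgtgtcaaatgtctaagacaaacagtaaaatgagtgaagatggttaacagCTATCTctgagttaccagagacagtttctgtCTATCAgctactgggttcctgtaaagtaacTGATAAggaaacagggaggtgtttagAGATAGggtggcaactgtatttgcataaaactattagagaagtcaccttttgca
Il1rl1 downstream start chr1:40439379-40439628, plus strand: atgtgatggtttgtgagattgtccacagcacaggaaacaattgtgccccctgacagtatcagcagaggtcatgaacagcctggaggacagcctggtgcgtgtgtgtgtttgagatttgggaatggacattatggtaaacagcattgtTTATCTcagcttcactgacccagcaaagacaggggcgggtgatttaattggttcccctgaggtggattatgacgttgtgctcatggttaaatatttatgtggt
The upstream Il1rl1 window held 5 matches, which began 217, 141, 110, 80 and 54 bases before the start site. The downstream Il1rl1 window held 1 match, at 103 bases. Il13 and Il5 held 1 match each, at 81 and 72 bases, and the Il4 window shown held 0. A second Il4 start listed by RefSeq held 1 match, and the windows of Gata3, Areg and both Il33 starts held 0. Among all 32851 promoter windows of this length, 8718 (26.5%) held at least 1 match and 14 (0.0426%) held 5 or more. The matches are descriptions of these letters and say nothing of whether a factor was bound.

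The 7 genes differed widely in how many molecules were captured. Over all kept cells Gata3 had 3542 UMIs in 1905 cells, Il33 3376 in 674, Areg 2510 in 629 and Il1rl1 1956 in 735. The cytokines were far sparser, with 239 UMIs in 167 cells for Il4, 168 in 39 for Il13 and 71 in 38 for Il5. Of the cells positive for Il4, 73.7% had a single UMI, whereas the 5 strongest Il13 cells held 52.4% of all Il13 UMIs and 1 cell alone had 37. The cytokine values therefore rest on few cells, and several values below are also given without the strongest cell.

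Producer cells were also picked by marker UMIs alone, independently of the clusters. There were 1568 T cells (Cd3e-positive, median 6351.5 UMIs), of which 1037 were in the lung libraries (5876 UMIs), 64 Cd3e-negative lymphoid cells with Gata3, Il1rl1 and at least 1 of Il7r, Thy1, Icos and Il2rb (5335.5 UMIs), 62 basophils (Mcpt8 with Ms4a2, Fcer1a or Cd200r3, 4535.5 UMIs) and 552 epithelial cells (Epcam-positive and Ptprc-negative, 17079.5 UMIs). T cells and Cd3e-negative cells with a UMI of Cd79a, Epcam, Cdh5, Csf1r or Ms4a2 were left out, as were Cd3e-negative cells with Mcpt8, Cpa3 or Fcer1a. Among the T cells, 73 had Foxp3, the factor of regulatory T cells, 454 had Cd4 without Cd8a and Foxp3, and 609 had Cd8a without Cd4. Eosinophils by marker (Ccr3 with Prg2, Epx, Alox15 or Il5ra) numbered 74 and mast cells 3. These gates overlapped, as 2 basophils were also mast cells and 4 were also eosinophils by marker. For background, 1588 cells of libraries 1, 2, 3 and 7 with at least 2 UMIs of Cd79a and no Cd3e were used, called B cells below. They had a UMI of Il4 in 0.126% and of Il5 and Il13 in 0% (up to 0.189% for a count of 0). Il33 was in 0.504%, Il1rl1 in 0.567%, Areg in 0.315% and Gata3 in 1.39%. This gate left out no other lineage, so its shares can include mixed cells as well as free RNA. Over all libraries, 46 of its 5408 cells fell in an endothelial-like and 75 in a nonclassical monocyte-like cluster. Among the 1369 B cell-like cells of the lung libraries, 2 had Il33, 3 had Il1rl1 and 4 had Gata3.

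**Figure D1:**
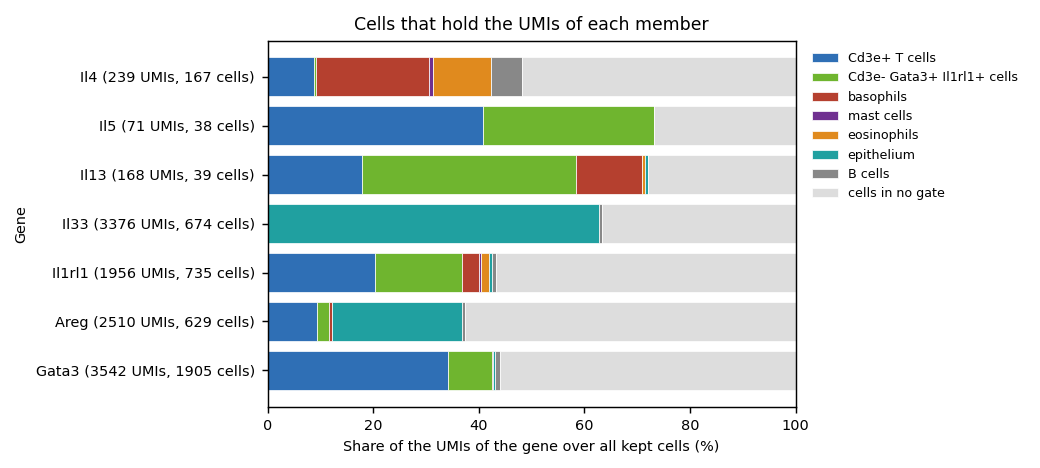
Share of each gene's UMIs (horizontal axis, percent of the gene's UMIs over all kept cells) by producer gate, with the cells in no gate as the last piece of each bar. Il33 sat largely in epithelium (62.6%), Il5 in T cells and Cd3e-negative Gata3 and Il1rl1 cells (40.8% and 32.4%), and Il4 had 51.9% of its UMIs outside every gate.

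Il4 was highest in granulocytes, not in T cells. Basophils had 51 UMIs in 31 of 62 cells, a share of 50% (37.0 to 63.0) and a level of 135 CPM (101 to 178). The UMIs were spread over the libraries with basophils, at 15 in 24 cells of library 1, 12 in 15 of library 2, 8 in 8 of library 3, 7 in 4 of library 5 and 9 in 10 of library 7, with 0 in the 1 basophil of library 6. Il4 was thus found in basophils of every library with at least 4 of them, and at most 4 UMIs came from 1 cell. Thinned to 1500 UMIs a cell, the share in basophils was 19.4% against 0.0637% in the B cells.

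The eosinophil-like cluster, led by Ccr3, Pglyrp1, Il1rn and Alox15, had the highest class level of Il4, 224 CPM (175 to 282) from 72 UMIs in 37 of 253 cells (14.6%). This value depended on 2 libraries. Library 7 held 213 of the cells and 64 of the Il4 UMIs (446 CPM), and library 1 held 28 cells with 5 UMIs (306 CPM, and 129 without its strongest cell). The 5 cells of library 6 held 47.96% of the cluster's UMIs and 0 of Il4, so the level was 431 CPM without library 6 and 45.0 CPM without library 7. The median cell of the cluster had 564 UMIs. At 400 UMIs a cell, the depth at which most of these shallow cells stay in, 11.1% of eosinophil-like cells had Il4 against 0% of the B cells. The basophil or mast cell-like cluster, led by Ccl4, Ccl3, Cyp11a1 and Mcpt8, followed at 181 CPM (139 to 230), and its interval overlapped that of the eosinophil-like cluster. T cell-like cells came next among the named classes at 1.88 CPM (1.21 to 2.80), and at 2.32 CPM in the lung libraries.

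Within T cells by marker, Il4 was found in 16 cells (1.02%, 0.584 to 1.65), or 0.658% without library 1. In the lung libraries it was in 15 of the 1037 T cells (1.45%, 0.812 to 2.37), at 2.80 CPM. Conventional CD4 cells held 11 of the 21 UMIs in 9 cells (1.98%), and neither the 609 CD8 cells nor the 73 Foxp3 cells had a UMI, which allows up to 0.493% and 4.11% of cells with one. The Cd3e-negative Gata3 and Il1rl1 cells had 1 Il4 UMI in 64 cells. Libraries 4 to 6 held 50 of the 239 Il4 UMIs, of which 16 sat in B cell-like and 13 in erythroid-like cells, whereas in the lung libraries eosinophil-like and basophil or mast cell-like cells held 72 and 60 of 189.

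Il5, the eosinophil growth factor, fell almost entirely in a single T cell-like cluster, which held 65 of its 71 UMIs and 35 of its 38 cells. This cluster (688 cells, led by Icos, Cxcr6, Trac and Trbc2) had 12.4 CPM of Il5 (9.53 to 15.7), and the remaining 6 UMIs were 4 in 1 endothelial-like cell and 1 each in a dendritic cell-like cell and an unnamed Arg1 and Mmp12 cluster. Over all T cell-like cells the level was 5.10 CPM (3.94 to 6.50), and 7.55 CPM (5.83 to 9.62) in the lung libraries. No other named class exceeded 0.166 CPM. For small classes this is a weak limit. Eosinophil-like and basophil or mast cell-like cells had 0 UMIs, with intervals up to 11.5 and 10.3 CPM, above the T cell-like level. By library, Il5 UMIs numbered 31 in library 1, 26 in library 2, 9 in library 3, 0 in libraries 4, 5 and 6 and 5 in library 7, and without library 1 the T cell-like level was 3.48 CPM.

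The Il5-positive cells of this cluster were 16 T cells by marker, 11 Cd3e-negative Gata3 and Il1rl1 cells and 8 cells in neither gate, with 29, 23 and 13 UMIs. All 29 UMIs of the T cells were in the lung libraries, at 1.54% of their cells (0.884 to 2.49) and 4.05 CPM (2.72 to 5.82), against 1.02% and 2.49 CPM over all libraries. Library 1 held 22 of them, without which the T cells of the lung libraries were at 0.730% and 1.43 CPM. The Cd3e-negative Gata3 and Il1rl1 cells had 23 UMIs in 11 of 64 cells (17.2%, 8.90 to 28.7), at 61.6 CPM (39.0 to 92.4). Their Il5 came from 4 libraries, with 3 UMIs in 12 cells of library 1, 14 in 21 of library 2, 3 in 6 of library 3, all in 1 cell, and 3 in 24 of library 7. Without the strongest cell, which had 9 UMIs and came from library 2, the level was 38.5 CPM, and without library 2 it was 36.4 CPM. The share of T cells with Il5 was lower than that of the Cd3e-negative gate, but Gata3 and Il1rl1 open only the latter. Of the 71 T cells of the lung libraries with both of these genes, 12.7% had Il5 (5.96 to 22.7), an interval that overlapped that of the Cd3e-negative gate. The gap between all T cells and the gate also depended on depth. At 1500 UMIs a cell the shares were 0.451% (0.182 to 0.928) and 4.76% (0.993 to 13.3), against 0% in B cells, at 1000 UMIs they were 0.321% and 1.59% with overlapping intervals, and at 400 UMIs 0.255% and 0%. CD8 T cells, Foxp3 T cells, basophils, eosinophils and epithelial cells had 0 Il5 UMIs, which allows up to 0.493%, 4.11%, 4.84%, 4.05% and 0.543% of cells with one, and the eosinophils were shallow at a median of 884 UMIs.

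Il13, the effector of mucus and airway hyperreactivity, was found in both lineages, the Il5-positive T cell-like cluster and the basophils. The T cell-like cluster held 112 of the 168 UMIs in 19 cells, at 21.3 CPM (17.5 to 25.6). The basophil or mast cell-like cluster had the highest class level, 91.7 CPM (63.1 to 129), from 33 UMIs in 7 of 86 cells. Few cells carried either value. The T cell-like cluster was at 14.3 CPM and the basophil or mast cell-like cluster at 50.9 CPM without its strongest cell, and the latter was at 57.0 CPM without library 3. The eosinophil-like cluster had 7 UMIs in 4 cells, all in library 7 and 3 of them in 1 cell.

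By library, the Il13 of the T cell-like cluster was 18.7 CPM in library 1, 2.35 in library 2 (3 UMIs of 1 cell), 0 in the 87 cells of library 3 and 91.6 in library 7, and 8.53 over all libraries but library 7. The level of library 7 was 46.5 CPM without its strongest cell, still the highest. Of the 74 UMIs of library 7, 66 were in 5 Cd3e-negative Gata3 and Il1rl1 cells. That gate as a whole had 68 UMIs in 6 of 64 cells (9.38%, 3.52 to 19.3), at 182 CPM (141 to 231). The level was 85.8 CPM without the cell of 37 UMIs and 275 CPM without library 2. Without library 7 it was 8.48 CPM, with 2.50% of cells positive, so the gate's Il13 rested on that library. T cells by marker had 30 UMIs in 10 cells (0.638%, 2.58 CPM), of which 25 were in library 1 and 29 in conventional CD4 cells, and without library 1 they were at 0.247% and 0.534 CPM. In the lung libraries the T cells were at 0.964% and 4.19 CPM, or 0.438% and 1.02 CPM without library 1. Of the 71 T cells of the lung libraries with both Gata3 and Il1rl1, 8.45% had Il13 (3.16 to 17.5), at 28.9 CPM (17.4 to 45.1). The interval of this share overlapped that of the Cd3e-negative gate. Basophils by marker had 21 UMIs in 7 of 62 cells (11.3%, 4.66 to 21.9), from libraries 1, 2, 3 and 7, and in 6.25% when each gate gene needed 2 UMIs. The cells with the most Il13 thus had no captured Cd3e in library 7 and were Cd3e-positive in library 1. Most of the gate's Il13-positive cells had Cd3d or Cd3g, and the Il13 share was lower once such cells were left out, as given below. Whether the Il13-positive cells of the gate were T cells was not tested.

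Most Il5-positive cells also had the receptor and the transcription factor, and fewer of the Il4-positive cells did. Of the 38 Il5-positive cells, 33 had Gata3 (86.8%, 71.9 to 95.6), 27 had Il1rl1 (71.1%, 54.1 to 84.6) and 18 had Il17rb, the receptor for IL-25. Of the 39 Il13-positive cells, 23 had Il1rl1 and 20 had Gata3. Of the 167 Il4-positive cells, 44 had Il1rl1 (26.3%) and 27 had Gata3 (16.2%). By comparison 2.11% of all kept cells without Il5, most of them not T cell-like, had Il1rl1 and 5.58% had Gata3. Of all cells of the T cell-like cluster that held most Il5-positive cells, 25.3% had Il1rl1 and 61.9% had Gata3. Il5 and Il13 were found together in 6 cells, 15.8% of the Il5-positive and 15.4% of the Il13-positive cells, and Il13 was in 0.0983% of the cells without Il5. Il4 and Il13 were together in 7 cells (4.19% and 17.9%) and Il4 and Il5 in 1 (0.599% and 2.63%). In the basophils, 1 of the 31 Il4-positive cells also had Il13. In the Cd3e-negative gate, 1 of the 11 Il5-positive cells also had Il13. At this depth a transcript present in a cell can go uncaptured, so these counts set no upper limit on the overlap.

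**Figure D2:**
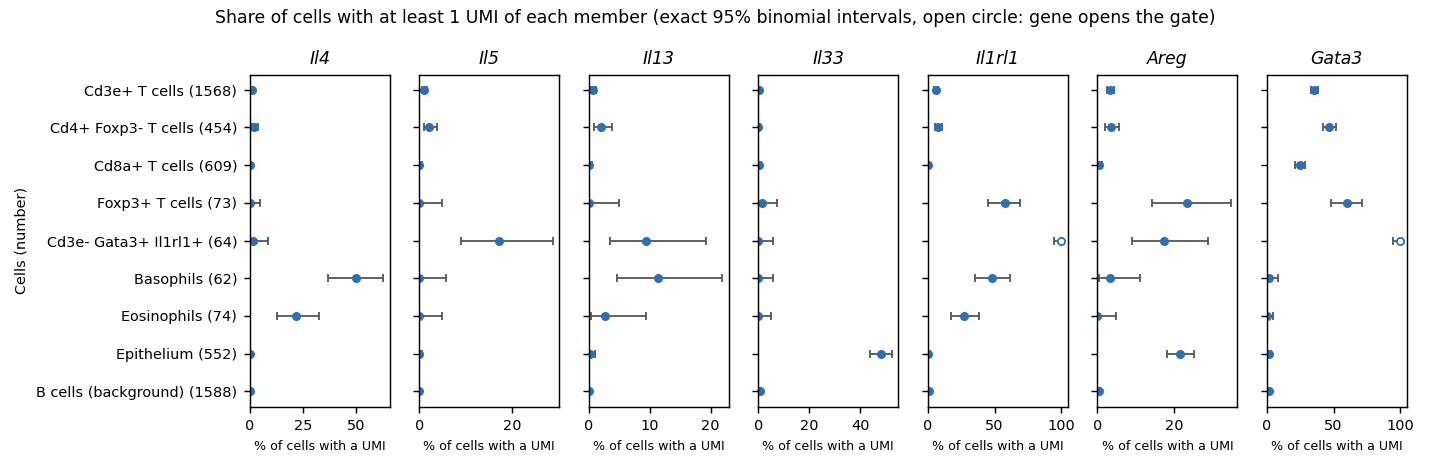
Percent of cells with at least 1 UMI of each gene (horizontal axis) in each producer gate (vertical axis), with exact 95% binomial intervals. Open circles mark genes that open the gate. All libraries were used, except for the B cells, which were those of the lung libraries. Il4 stood at 50% of basophils, Il5 at 17.2% and Il13 at 9.38% of the Cd3e-negative cells, Il33 at 48.2% of epithelium and Il1rl1 at 57.5% of Foxp3 T cells.

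The Cd3e-negative gate was checked against markers of group 2 innate lymphoid cells, since Gata3 and Il1rl1 open the gate and are no finding in it. The share of cells with a UMI was higher than in the T cells of the lung libraries for 9 of the 10 listed markers, of which Il7r and Thy1 also help to open the gate, and lower for Thy1 (81.3% against 85.8%). These T cells were not picked by Gata3 and Il1rl1, as the cells of the gate were, so the comparison is not one of Cd3e alone. Arg1 was in 76.6% against 1.64%, Ccdc184 in 46.9% against 0.675%, Il17rb in 43.8% against 5.30% and the neuropeptide gene Calca in 17.2% against 0.868%. Transcripts of the T cell receptor complex were also present, with Trbc2 in 75.0%, Cd3g in 23.4%, Cd3d in 12.5% and Trac in 7.81% of the cells, and the part of T cells in the gate was not tested. Leaving out the cells with Cd3d or Cd3g left 46 cells, of which 13.0% had Il5 (39.4 CPM), 2.17% had Il13 and 15.2% had Areg. Most Il13-positive cells of the gate were thus among the cells left out. A gate opened by Il17rb in place of the members held 39 cells, of which 23.1% had Il5, 12.8% had Il13 and 7.69% had Areg. The cells are therefore called by their gate.

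Il33 was an epithelial transcript first and a stromal one second. Alveolar type 2-like cells, which make surfactant, held 2479 of the 3376 UMIs (73.4%). Of these 353 cells 309 had Il33 (87.5%, 83.6 to 90.8), and the level was 388 CPM (373 to 403). The level was 522 CPM in library 1 (49 cells), 341 in library 2 (155), 244 in library 3 (122) and 824 in library 7 (27). The order was thus library 7, library 1, library 2 and library 3, with the fewest cells behind the highest value. The other airway classes had next to none, with 1 UMI in ciliated-like and 6 in club-like cells. Epithelial cells by marker had Il33 in 48.2% (43.9 to 52.4), and at 1500 UMIs a cell in 18.4% against 0.191% of B cells.

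Outside epithelium Il33 marked particular subsets. A fibroblast-like cluster led by Dcn, Igfbp5, Lum and Pi16 (229 cells) had 167 CPM (153 to 183) with 59.0% of its cells positive, whereas the larger Inmt fibroblast-like cluster (1251 cells) had 3.86 CPM. The levels in the 2 libraries with more than 20 cells of the Pi16 cluster were 192 CPM in library 2 and 153 in library 3. Among endothelial-like cells, the cluster led by Slc6a2 and Vwf, a marker of large vessels, had 58.8 CPM (50.03 to 68.6) with 22.7% of its 330 cells positive. Its level by library was 109, 37.6, 59.9 and 60.7 CPM in libraries 1, 2, 3 and 7, the last being 26.8 CPM without its strongest cell. Il33 was found in 0.297% of the 1683 cells of the Gpihbp1 capillary cluster. Lymphatic endothelial-like cells had 12.05 CPM (7.14 to 19.04). Hematopoietic producers of the axis had almost none, with 5 UMIs in 1568 T cells and 0 in the basophil, eosinophil and Cd3e-negative gates.

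**Figure D3:**
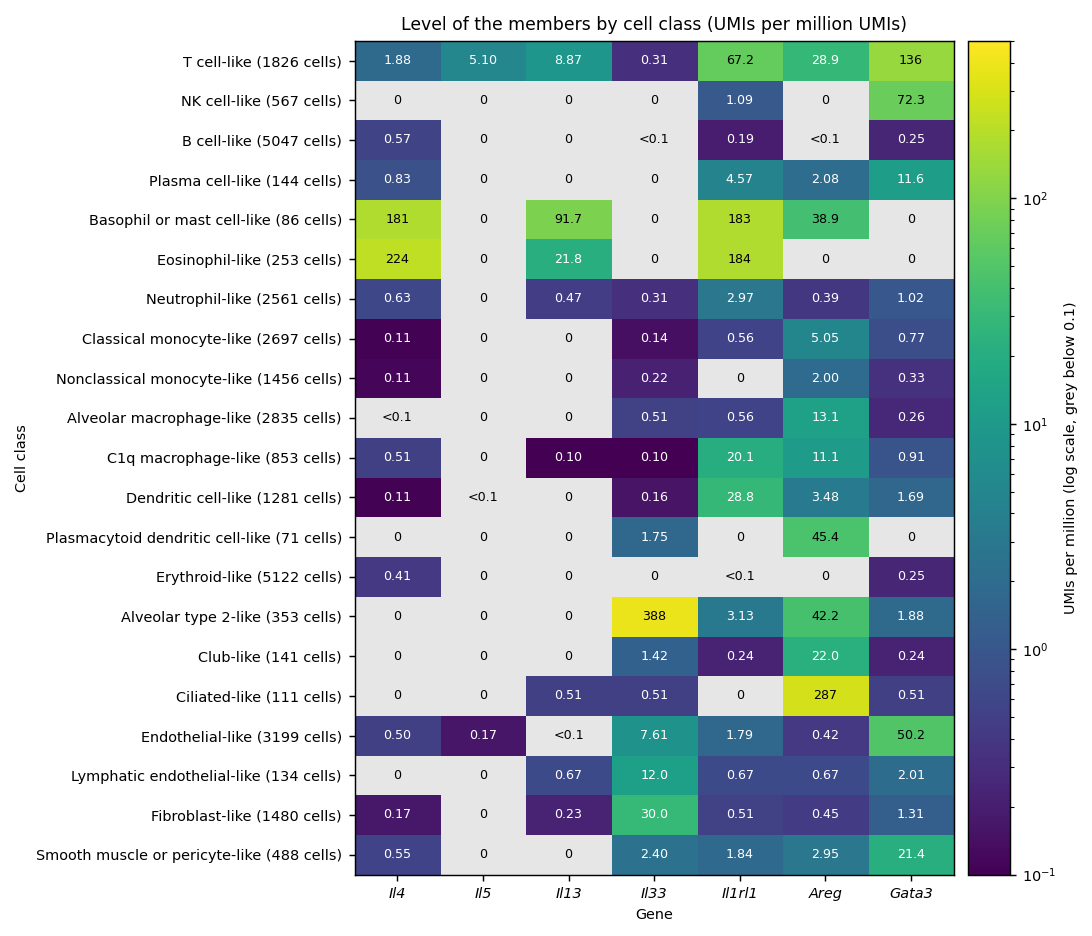
Level of each member (columns) in the 21 named cell classes (rows), colored by CPM on a log scale, with values under 0.1 CPM in grey. Il33 peaked in alveolar type 2-like cells at 388 CPM, Areg in ciliated-like cells at 287, Gata3 in T cell-like cells at 136, and Il4 and Il1rl1 in eosinophil-like cells at 224 and 184.

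Il1rl1, the receptor for IL-33, was found in granulocytes, T cells, dendritic cells and macrophages. Eosinophil-like cells had 184 CPM (140 to 237), basophil or mast cell-like cells 183 (142 to 233), T cell-like cells 67.2 (62.7 to 71.8, and 97.2 in the lung libraries), dendritic cell-like cells 28.8 (26.4 to 31.3) and C1q macrophage-like cells 20.1 (17.4 to 23.1), and all 3 mast cells by marker had it, with 30 UMIs. The intervals of the first pair overlapped and those of the later classes did not. The T cell-like level included Cd3e-negative cells. Of the 848 Il1rl1 UMIs of the T cell-like cluster with the Il5 cells, 320 were in the Cd3e-negative gate, which Il1rl1 helps to open. T cells by marker were lower, at 34.2 CPM (30.9 to 37.7), and at 53.1 CPM in the lung libraries. The gene counts do not separate the membrane-bound receptor from the soluble decoy form, which come from the same gene. The eosinophil-like level was 353 CPM without library 6 and 67.5 CPM without library 7. In basophils by marker, 48.4% of cells (35.5 to 61.4) had Il1rl1 against 0.567% of B cells.

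Foxp3 T cells were the T cells with the most Il1rl1. They had 166 UMIs in 42 of 73 cells (57.5%, 45.4 to 69.0), at 260 CPM (222 to 303). Conventional CD4 cells had it in 7.71% (5.43 to 10.6), or 10.3% in the lung libraries, and CD8 cells in 0.328% (0.0398 to 1.18). The CD8 interval held the 0.567% of the B cells by marker, a gate that can include mixed cells. By library, the Foxp3 cells positive for Il1rl1 were 10 of 15 in library 1, 7 of 13 in library 2, 8 of 18 in library 3, 4 of 6 in library 5 and 13 of 20 in library 7. Il1rl1 was thus found in Foxp3 cells of each library with at least 6 of them, a hemoglobin-rich one included. The T cell-like cluster with the Il5 cells had 161 CPM over all libraries, 340 in library 7, 164 in library 1, 130 in library 2, 112 in library 3 and 30.5 in the 29 cells of library 5, or 17.5 there without the strongest cell.

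T cells with and without Il1rl1 differed in the rest of the axis, at like depth (median 6719 and 6327 UMIs). Of the 96 T cells with it, 10.4% had Il5 (5.11 to 18.3) against 0.408% (0.150 to 0.885) of the 1472 without. Il13 was in 7.29% against 0.204% and Il4 in 8.33% against 0.543%. Areg was in 21.9% (14.1 to 31.5) against 2.04% (1.38 to 2.90), and Gata3 in 79.2% (69.7 to 86.8) against 32.8% (30.4 to 35.3). None of these pairs of intervals overlapped. In the lung libraries alone (90 and 947 T cells), Il5 was in 11.1% against 0.634%, Il13 in 7.78% against 0.317%, Il4 in 8.89% against 0.739%, Areg in 23.3% against 3.17% and Gata3 in 78.9% against 37.1%, and again no pair of intervals overlapped. Without library 1 the Il5 shares were 5.66% and 0.316%, and those of Il13 3.77% and 0.158%. These shares rest on few cells, as library 1 held 25 Il13 UMIs of the T cells, library 2 held 1 and library 7 held 4. No intervals were made for them, so whether the separation held without library 1 was not tested. Foxp3 was in 43.8% against 2.11%, and Cd8a in 2.08% against 41.4%, so the Il1rl1-positive T cells were a mixture of Foxp3 cells and cells of which few had Cd8a.

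Among dendritic cells, Il1rl1 marked 1 of 3 clusters. The Cd209a cluster (620 cells, led by Cd209a, Mgl2, Tnip3 and Ccl17) had 62.6 CPM (57.5 to 68.1) with 236 cells positive (38.1%), against 3 positive cells, or 0.636%, in the Xcr1 cluster and 1 in the Ccl22 and Fscn1 cluster. By library its level was 32.2, 92.6, 76.7 and 82.8 CPM in libraries 1, 2, 3 and 7, and 0, 3.35 and 17.3 CPM in libraries 4, 5 and 6, where they rest on 0, 1 and 5 UMIs. At 1500 UMIs a cell 9.11% of the Cd209a cluster had it, against 0% of the Xcr1 cluster and 0% of the B cells. C1q macrophage-like cells had Il1rl1 in 14.1%, and 1.84% at 1500 UMIs, with 16.4, 23.0, 34.9 and 12.3 CPM in libraries 1, 2, 3 and 7.

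Areg, the repair factor, was found in epithelial, lymphoid and myeloid cells. Ciliated-like cells were highest at 287 CPM (263 to 311), with 60 of 111 cells positive (54.1%, 44.3 to 63.6). A single ciliated-like cell of library 2 held 185 of the 562 UMIs, and without it the level was 194 CPM. By library the level was 387 CPM in library 2 (47 cells), 256 in library 3 (31), 223 in library 7 (25) and 130 in library 1 (8 cells). This order rested on single cells, since without the strongest cell of each library the levels were 147, 133, 171 and 33.4 CPM, with library 7 the highest. Alveolar type 2-like cells had 42.2 CPM (37.4 to 47.6), and club-like cells 21.95 CPM, of which 1 cell of library 2 gave 62 of 93 UMIs, with 7.46 CPM without it. Epithelial cells by marker had Areg in 21.4% (18.03 to 25.04), with 38.2, 53.4, 33.6 and 144 CPM in libraries 1, 2, 3 and 7, so that library 7 was the highest here, and library 1 was at 25.3 CPM without its strongest cell. At 1500 UMIs a cell the share was 5.58% against 0.0637% of B cells.

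In lymphocytes Areg was highest in cells that also had Il1rl1. The Foxp3 T cells had 85 UMIs in 17 of 73 cells (23.3%, 14.2 to 34.6), at 133 CPM and at 62.2 CPM without library 1. Within them 14 of the 42 Il1rl1-positive cells had Areg (33.3%, 19.6 to 49.5) against 3 of the 31 without (9.68%, 2.04 to 25.8). These intervals overlapped, and the median depths were 7513 and 5201 UMIs. The Cd3e-negative Gata3 and Il1rl1 cells had 59 UMIs in 11 of 64 cells (17.2%, 8.90 to 28.7), from libraries 1, 2, 3 and 7. In each of these libraries 1 cell held most of them, with 21 of 26, 8 of 9, 12 of 17 and 6 of 7 UMIs. Of the 71 T cells of the lung libraries with both Gata3 and Il1rl1, 23.9% had Areg (14.6 to 35.5), an interval that overlapped that of the gate. Conventional CD4 cells had 98 UMIs in 16 cells, 54 of them in 1 cell of library 1, and CD8 cells had 4 UMIs in 609 cells. Over all T cell-like cells the level was 28.9 CPM, 42.9 CPM in the lung libraries and 13.2 CPM without library 1. The T cell-like cluster with the Il5 cells had 125 CPM in library 1, 28.2 in library 2, 78.8 in library 3 and 40.8 in library 7.

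Myeloid cells added Areg that varied by library. In the larger alveolar macrophage-like cluster the level was 39.7 CPM in library 1, 4.18 in library 2, 33.1 in library 3 and 1.40 in library 7. In the smaller one it was 17.1, 6.53, 26.6 and 10.7 CPM in the same libraries, so libraries 1 and 3 were above libraries 2 and 7 in both clusters. The 10.7 CPM of library 7 fell to 4.15 without its strongest cell. Plasmacytoid dendritic cell-like cells had 45.4 CPM from 9 of 71 cells, and 22.4 CPM without library 3. Basophil or mast cell-like cells had 14 UMIs, 12 of them in 1 cell, and eosinophil-like cells, at a median of 564 UMIs, had 0 UMIs in 253 cells, which allows up to 1.19% of cells with one.

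Gata3 was the most widely detected member and was not limited to type 2 cells. T cell-like cells had 136 CPM (130 to 143), NK cell-like cells 72.3 (63.8 to 81.5) and endothelial-like cells 50.2 (47.4 to 53.1), and these intervals did not overlap. In the lung libraries T cell-like cells were at 174 CPM and NK cell-like cells at 79.4 CPM. In libraries 4 to 6 the order was the reverse, at 58.7 CPM (51.6 to 66.6) and 69.0 CPM (59.1 to 80.1), with overlapping intervals. The NK cell-like class included a cluster of 126 cells found only in libraries 4 to 6, of which 75 were T cells by marker. Over all libraries, T cells by marker were at 104 CPM (98.1 to 110). Smooth muscle or pericyte-like cells followed at 21.4 CPM (17.7 to 25.7). The T cell-like cluster with the Il5 cells was the highest of all clusters at 255 CPM (242 to 269), with 61.9% of cells positive. Within T cells by marker, Gata3 was in 60.3% of Foxp3 cells, 46.9% of conventional CD4 cells and 24.8% of CD8 cells, against 1.39% of B cells. Over all T cells by marker the share was 35.7% (40.7% in the lung libraries), and 12.5% at 1500 UMIs a cell. Basophils had Gata3 in 1 of 62 cells and eosinophils in 0 of 74, although both groups had Il4 and Il1rl1. The Gata3-positive basophil was also a mast cell by marker.

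Endothelial Gata3 was found in every lung library. The Gpihbp1 capillary cluster (1683 cells) had 65.2 CPM (60.3 to 70.3), with 51.0, 58.9, 99.4 and 64.0 CPM in libraries 1, 2, 3 and 7. The Vwf cluster had 86.5 CPM (75.8 to 98.2) and 41.5% of cells positive. T cells by marker spanned a wider range, with 217 CPM in library 1, 102 in library 2, 74.9 in library 3, 22.4 in library 4, 80.7 in library 5, 31.2 in library 6 and 129 in library 7. Libraries 4 and 6 were thus the lowest for T cell Gata3 and library 1 the highest.

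**Figure D4:**
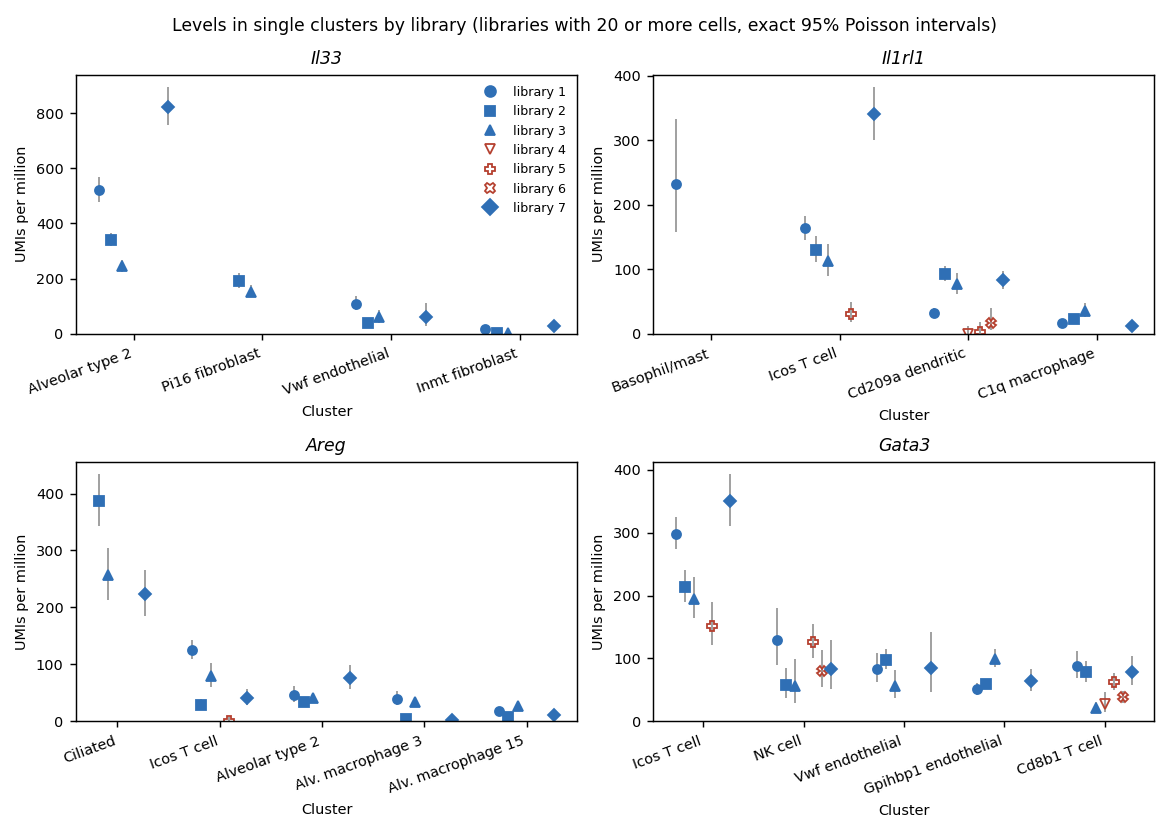
CPM of Il33, Il1rl1, Areg and Gata3 (vertical axis, linear scale) by library in chosen clusters with high levels of each gene, with exact 95% Poisson intervals, for libraries with at least 20 cells of the cluster. Il33 in alveolar type 2-like cells ranged from 244 CPM in library 3 to 824 in library 7, and Il1rl1 in the Cd209a cluster from 32.2 in library 1 to 92.6 in library 2 among the lung libraries.

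Per library, a level over all cells reflects both how many cells of a type were captured and how much RNA each held, which cannot be told apart there. Il33 was at 14.04, 17.3, 17.6 and 18.9 CPM in libraries 1, 2, 3 and 7 and at 0.0338, 0 and 0 CPM in libraries 4, 5 and 6. Il1rl1 was at 15.3 CPM in library 7, 12.5 in library 1, 7.21 in library 2 and 5.91 in library 3, and at 0.528 to 1.005 in libraries 4 to 6. Areg was at 18.5 CPM in library 3, 13.7 in library 1, 10.2 in library 2 and 8.56 in library 7, with 0 UMIs in 12762 cells of libraries 4 to 6. Il33 thus spanned a narrower range over whole lung libraries than within alveolar type 2-like cells, and Il1rl1 and Areg had other orders of the libraries.

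The cytokines differed more between the lung libraries. Il4 was at 2.37 CPM in library 7, 1.04 in library 1, 0.736 in library 3 and 0.392 in library 2. Il13 was at 2.76 CPM in library 7, 0.951 in library 1, 0.379 in library 3 and 0.209 in library 2. Without its strongest cell, library 7 was at 1.65 CPM and still the highest, and library 3, where 1 cell held 15 of the 17 UMIs, was at 0.0446 CPM and the lowest. Il5 had another order, with 0.686 CPM in library 1, 0.340 in library 2, 0.201 in library 3 and 0.150 in library 7, and library 2 was at 0.222 and library 7 at 0.0901 CPM without their strongest cells. Gata3 was at 21.03, 14.1, 13.3 and 13.9 CPM in libraries 1, 2, 3 and 7. In libraries 4 to 6 Il5, Il13 and Areg were at 0 and Gata3 at 0.945, 8.92 and 4.72 CPM, mostly from T cell-like (243 of 455 UMIs) and NK cell-like cells (174). The NK cell-like cells there included 75 T cells by marker in a cluster led in part by Cd8b1, Cd3e and Trbc1. How much of the 174 UMIs these held was not tested.

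**Figure D5:**
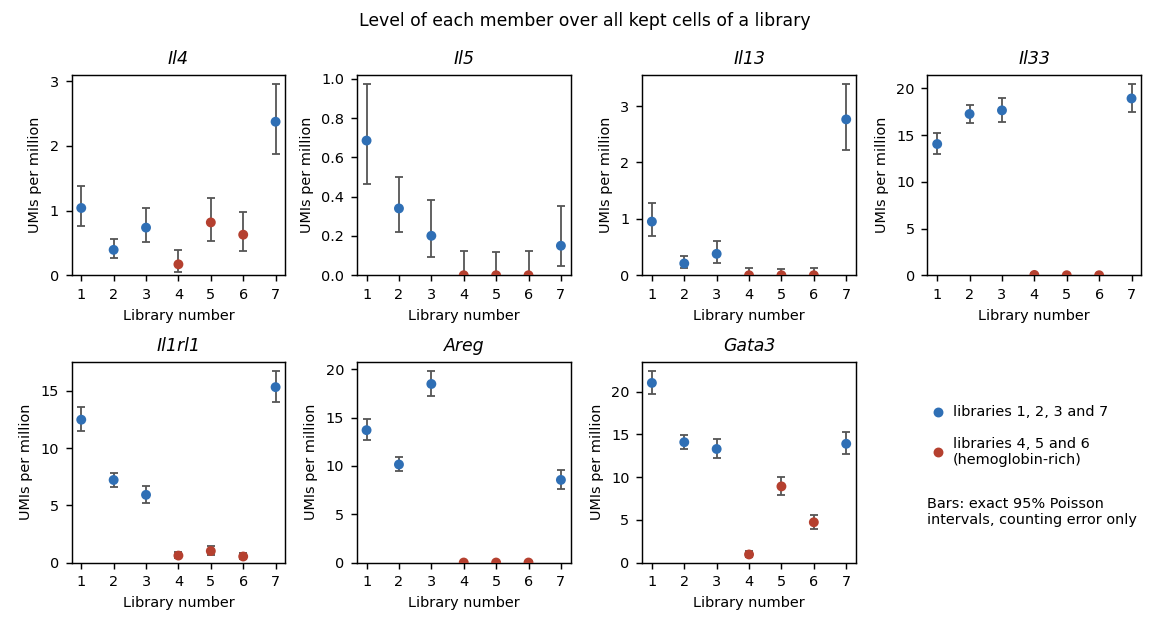
CPM of each member (vertical axis, linear scale from 0) in the 7 libraries, with exact 95% Poisson intervals and the hemoglobin-rich libraries 4, 5 and 6 in red. Il4 and Il13 were highest in library 7 at 2.37 and 2.76 CPM, Il5 in library 1 at 0.686, and Il5, Il13 and Areg had 0 UMIs in the red libraries.

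A list of 56 further genes of the type 2 pathway was read in the same classes, with no test. Of these, 54 had at least 1 UMI and 51 reached 10 CPM in their highest class, at a median of 114 CPM. The share of all genes that reached 10 CPM in their highest class was not computed. The counts of genes over this mark, here and in the next paragraph, therefore describe the list and are no result about the pathway. Among the other alarmins, Il1a reached 959 CPM in eosinophil-like cells, Il18 283 CPM in alveolar macrophage-like cells and Tslp 46.01 CPM in fibroblast-like cells, while Il25 had 2 UMIs in all. Over all kept cells, Il1a was at 9.69 CPM in library 6 against 0 and 0.0628 in libraries 4 and 5. The 5 cells of library 6 held 47.96% of the eosinophil-like UMIs, and how far the 959 CPM rested on them was not tested. Of 14 receptor genes, 13 reached 10 CPM. Csf2rb, the chain shared by the receptors for IL-5, IL-3 and GM-CSF, was the highest, with a peak of 1554 CPM in the basophil or mast cell-like cluster, and the decoy receptor Il13ra2 the lowest with 12 UMIs. Il4ra, the receptor chain shared by IL-4 and IL-13, was over 10 CPM in 18 of the 21 classes, and Il5ra was at 27.97 CPM in B cell-like cells. The 18.7 CPM of Il5ra in eosinophil-like cells came from 6 UMIs, with an interval (6.85 to 40.6) that held the B cell-like value. How far this level too rested on the 5 cells of library 6 was not tested. Egfr, which encodes the receptor of amphiregulin, was highest in fibroblast-like cells (24.9 CPM). Erbb3, also on the list, was highest in alveolar type 2-like cells (61.8 CPM), which had 4.69 CPM of Egfr.

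Of the 7 other cytokines, Il6 peaked in the basophil or mast cell-like cluster at 2465 CPM, and Il9 and Il3 had no UMI. The Cd3e-negative Gata3 and Il1rl1 cells had 348 CPM of Calca, 128 of Tnfsf11 and 120 of Csf2, against 2.10, 42.4 and 4.75 CPM in the T cells by marker of the lung libraries. Here too the T cells were not picked by Gata3 and Il1rl1. The highest class for Csf2 was alveolar type 2-like cells at 17.8 CPM. Of the 18 regulators all reached 10 CPM, from Jak3 (20.1 CPM in T cell-like cells) to Maf (1298 CPM in lymphatic endothelial-like cells), and 12 did so in at least 11 classes. Stat6, which carries the IL-4 and IL-13 signal, was over 10 CPM in 20 classes. Of 13 targets of IL-4 and IL-13, 12 reached 10 CPM. The highest was Chil3 at 32198 CPM in alveolar macrophage-like cells. The lowest was Retnlb, which did not reach 10 CPM and peaked at 2.58 CPM in neutrophil-like cells. The eosinophil attractant Ccl11 was highest in fibroblast-like cells (38.9 CPM) and Clca1, a gene of mucous airway cells, in club-like cells (432 CPM).

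The genes whose levels ran most like each member over the 21 classes were ranked by Pearson correlation of log2(CPM + 10) among 17699 genes, as a description in which the classes share libraries and depth. Closest to Il4 were 1700006J14Rik, Ldhc and Gata1 (r = 0.997, 0.996 and 0.990), all highest in eosinophil-like cells. Their levels there were 12.4, 24.9 and 43.6 CPM in a class of 321288 UMIs, so few UMIs stand behind these correlations. Il5 ran with Olfr1259, Tff1 and Il22 (r of 0.999 or more), then 9230102O04Rik and Il17a, all T cell-like. Il13 was closest to 4932438H23Rik, Cpa3 and Prss34 (r = 0.985, 0.973 and 0.966), of which the latter pair encode granule proteases of basophils and mast cells. Il33 was closest to Phf24 and Fgl1 (r = 0.972 and 0.969), Areg to Cdh1, the epithelial cadherin, and Pak6 (r = 0.860 and 0.856), and Gata3 to Tdrp and Tcf7 (r = 0.960 and 0.935). Closest to Il1rl1 were 4932438H23Rik, C030034L19Rik and Gm45716, followed by another member, Il13 (r = 0.858). For genes with high levels in 1 class only, such as Il5, the correlation rests on that class. Several of the genes named, Il22 and Fgl1 among them (2.82 and 1.56 CPM), peaked below the 10 CPM added before the logarithm.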

How the data were processed

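The authors deposited 1 matrix of UMI counts per gene and cell barcode (whole numbers, not normalized), made with Cell Ranger and STAR on mm10 per the submitters' processing notes, with 3.1.0 as the Cell Ranger version in the matrix header. According to the methods, reads were down-sampled so that libraries had like depth before counting, which lowers the counts of the deeper libraries. The labels and the methods name different versions of the 3′ reagent kit. No column of another series was present.

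Barcodes with mt- genes above 10% of UMIs were left out. Counts were summed per library, gate and cluster and divided by the summed UMIs of the same cells (CPM). Counts were scaled per cell, 2000 variable genes without the members and the 56 pathway genes entered a principal component analysis with 30 components, mutual nearest neighbors served to align the libraries, and Leiden clusters were cut at resolution 0.8 from 20 neighbors. Clusters were named from marker lists, with a scoring rule set after the clusters had been seen. 7 clusters (2913 cells) stayed unnamed. Doublets were kept. Scrublet called 709 barcodes, at most 13 in each of libraries 4 to 6, where it did not work, and leaving them out was an alternative. Shares at equal depth came from thinning each cell to 1500 UMIs, with shallower cells left out.

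Because no label ties library numbers to samples, the data count as 1 sample, and no test, standard error or group comparison was made. The members, gates and lists were chosen with earlier results of these data known. Named genes are the 7 members, the highest and lowest of the pathway list per role, and the 5 genes most correlated with each member (genes with at least 20 UMIs, classes with at least 50 cells), of which the first are printed. Receptor, cytokine and regulator genes named beyond these were chosen after their values were seen. Promoter windows came from RefSeq (GRCm38.p6), matched by symbol for all 7 members. The scripts were tested on simulated data. Alternatives covered the mitochondrial limit, the study's filter, library weights, doublets, leaving out each library, clustering settings, gate definitions and thinning depth. Tools were Python 3.11.15, numpy 2.4.6, scipy 1.17.1, pandas 2.3.3, scikit-learn 1.9.0, scanpy 1.11.5, leidenalg 0.10.2 and matplotlib 3.10.9.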

Additional observations from a re-analysis of the deposited data

How the results depend on the processing

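Of 846 alternative values for 65 results, 638 moved by less than their counting interval and 208 moved further. Leaving out each library in turn gave 45.0 to 431 CPM for Il4 and 67.5 to 353 CPM for Il1rl1 in eosinophil-like cells, 3.48 to 5.95 CPM for Il5 and 110 to 153 CPM for Gata3 in T cell-like cells, 57.0 to 116 CPM for Il13 in basophil or mast cell-like cells, 337 to 458 CPM for Il33 in alveolar type 2-like cells and 224 to 311 CPM for Areg in ciliated-like cells. A mitochondrial limit of 5% gave 112 CPM (Il4), 128 (Il1rl1), 658 (Areg) and 147 (Gata3) in these classes. The study's filter on UMIs and genes per barcode (within 2 SD of the mean) gave 373 CPM (Il4), 306 (Il1rl1), 320 (Il33) and 337 (Areg). The mean over libraries gave 376 CPM (Il4), 347 (Il1rl1), 54.4 (Il13), 483 (Il33) and 122 (Gata3). Clustering without alignment gave 367 CPM for Il33, resolution 0.4 gave 127 CPM and clustering with the members left in 120 CPM for Gata3. Leaving out the cell of most UMIs, an alternative chosen after seeing the data, gave 50.9 CPM for Il13 and 194 CPM for Areg. Thinning depths of 1000 and 3000 UMIs gave Il5 shares of 1.59% and 13.1% in the Cd3e-negative gate, against 4.76% at 1500. The depth of 400 UMIs, the levels by library without the strongest cell and the T cells of the lung libraries alone were also chosen after seeing the data. The cause of these shifts was not tested, except that fewer cells or other weights enter by construction.

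No paired analysis was possible because no column of the matrix carries the replicate numbers of the labels. The cytokine values are limited by depth, since 39 or fewer cells carry Il5 or Il13, and the eosinophil-like values by the median of 564 UMIs in those cells.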

Other observations

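Il33 and Areg were both found in epithelium. Of the epithelial cells by marker, 45 of the 266 with Il33 also had Areg (16.9%, 12.6 to 21.97), against 73 of the 286 without Il33 (25.5%, 20.6 to 30.99), and these intervals overlapped. The ciliated-like cells, highest for Areg, had 1 Il33 UMI, and the alveolar type 2-like cells, highest for Il33, had Areg in 17.6%. No test was made, since the cells come from 1 sample.

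Basophil or mast cell-like cells, the second class for Il4, were also the highest class for Il6 at 2465 CPM and for Csf2rb2 at 581 CPM, and Cish, a gene induced through STAT5, was highest in eosinophil-like cells at 317 CPM. Il10, a regulatory cytokine, was highest in C1q macrophage-like cells at 33.2 CPM. Retnla, a target of IL-4 and IL-13, was highest in club-like cells at 6717 CPM. Fcer2a, which encodes the low-affinity IgE receptor, was highest in B cell-like cells at 394 CPM.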
